A study of Homo sapiens with 4 samples.

Results

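The MYC, MAX and MXD network was described in HGC-27 cells, an established line labelled as gastric carcinoma, with and without knockdown of the deubiquitinase USP47. The 10 network genes MYC, MYCN, MYCL, MAX, MXD1, MXD3, MXD4, MXI1, MNT and MGA were taken by symbol from 63568 gene identifiers, and all 10 were found. The genes were selected on their read counts in USP47 shRNA against control shRNA libraries, with results of that contrast known, so their values in it are a description and support nothing. Lentivirus-infected cells of both groups were sequenced, 2 libraries with scrambled control shRNA and 2 with USP47 shRNA, all 4 from stably selected populations that carry the virus. Whether the 2 USP47 shRNA libraries carry 1 shRNA or different ones is not given in the sources used here, so their spread can hold a difference between shRNAs. The methods describe independent biological replicates in triplicate, whereas 2 libraries per group are analysed here, and the labels do not tie them to separate cultures.

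Proteins of this network bind DNA as pairs built around MAX. MYC, MYCN and MYCL pair with MAX on the E-box CACGTG and recruit acetyltransferase complexes that raise transcription. The MXD proteins and MNT compete for the same partner and bring the SIN3 histone deacetylase complex to the same sites, and MGA carries MAX into a Polycomb complex known as PRC1.6. MYC is a widely amplified oncogene that drives growth and ribosome production, whereas MXD genes are known for their rise when cells stop dividing or differentiate.

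Total counts on genes ran from 15649899 to 20140273 per library. USP47 itself was at 80.0 and 66.1 CPM (read counts per library total, scaled by TMM normalization) in the control libraries and at 36.0 and 21.5 CPM in the USP47 shRNA libraries, which is 49.3% and 29.5% of the control mean. Of 9 epithelial and gastric marker genes, 6 fell below the filter on low counts, and KRT18, a keratin that defines simple epithelium, had 0, 1, 1 and 0 counts in the 4 libraries. The other 3 (EPCAM, KRT8 and CDH1) had 3 to 28 counts per library, so the defining transcripts of gastric epithelium were at or near 0. EPCAM fell with USP47 shRNA (log2 fold change -1.84, adjusted p = 0.0416, edgeR). Of 4 mesenchymal genes, VIM was at 353 to 502 CPM and ZEB1 at 68.1 to 106 CPM without a call, and CDH2 had 3 to 10 counts. FN1, for fibronectin, fell from 73.1 and 73.8 CPM to 26.2 and 31.98 CPM (log2 fold change -1.34, adjusted p = 0.000602, edgeR), and the part of these markers in the network's values was not tested. Of 5 leukocyte and endothelial genes 2 were tested and 0 called, with PTPRC at 8 to 12 counts. The quasi-likelihood test of edgeR was run on 21932 genes, of which 16.1% were called at a Benjamini-Hochberg adjusted p under 0.05, 6.52% higher and 9.56% lower with USP47 shRNA.

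MYC, MAX and 3 of the 6 repressors were called higher in the knockdown, while MYCL, MXD3, MXI1 and MGA were not called. Of the 9 network genes that passed the filter on low counts, 5 were called higher (MYC, MAX, MXD1, MXD4 and MNT), or 55.6%, beside the 6.52% of all genes called higher, and 0 were called lower by either edgeR or DESeq2. At an unadjusted p under 0.05 the number lower was also 0. The median log2 fold change of the 9 was 0.59, against -0.0083 over all tested genes. In 6 of the 9 the groups did not overlap, an order found in 61.0% of all tested genes. Since the genes were chosen from this contrast, nothing is read from these shares.

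**Figure D1:**
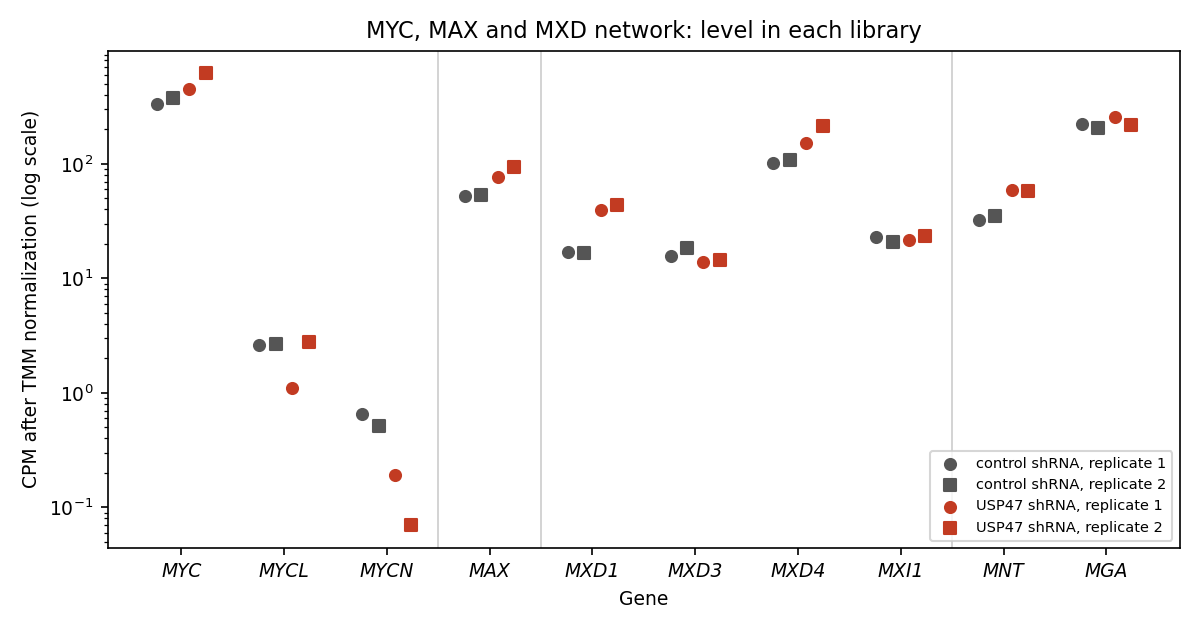
Level of each network gene in each library, in CPM after TMM normalization on a log axis. Gray marks are control shRNA and red marks USP47 shRNA, circles are replicate 1 and squares replicate 2. MYC, MAX, MXD1, MXD4 and MNT have both red marks above both gray ones, and MYCN lies below 1 CPM in every library.

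MYC was by far the main activator. MYC (ENSG00000136997, chromosome 8 of GRCh37, 128747680 to 128755197) had 5686 and 7302 counts in control cells and 9394 and 8850 with USP47 shRNA. In CPM these were 335 and 372 against 452 and 617. The groups did not overlap, and the 2 knockdown libraries differed more from each other than the controls did. The log2 fold change was 0.59 (standard error 0.17), a level 1.51 times that of control. It was 0.36 without USP47 shRNA replicate 2 and 0.81 without USP47 shRNA replicate 1, and the call was lost without control replicate 1 (0.52) or control replicate 2 (0.67). The antisense gene CASC11 overlaps the 5′ part of MYC and held 3 to 11 counts per library. PVT1, the long noncoding RNA next to MYC that is often co-amplified with it, was at 382 and 363 CPM in control and 380 and 384 CPM in knockdown cells. PVT1 was not called (log2 fold change 0.037 ± 0.13, SE, with an adjusted p of 0.874 in edgeR's test), and its sign turned to -0.033 when libraries were scaled by size only.

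The paralogs were near the floor. MYCL, first known from lung cancer (ENSG00000116990, chromosome 1, 40361100 to 40367928), had 44 and 52 counts in control and 23 and 40 with USP47 shRNA, or 2.59 and 2.65 against 1.11 and 2.79 CPM. The groups overlapped and MYCL was not called, at a log2 fold change of -0.51 (standard error 0.36). Replicate 1 alone carried that value, since the log2 fold change was 0.095 without USP47 shRNA replicate 1, while without USP47 shRNA replicate 2 it was -1.24 and called. MYCN, the neuroblastoma paralog (ENSG00000134323, chromosome 2, 16080672 to 16087129), had 11 and 10 counts in control and 4 and 1 in knockdown libraries, too few to pass the filter. MYCN was therefore not tested in the comparison, though it passed the filter and was called lower without USP47 shRNA replicate 1. The antisense genes MYCL-AS1 and MYCNOS held at most 2 counts in a library.

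MAX, the partner that both sides share, was higher as well. MAX (ENSG00000125952, chromosome 14, 65472892 to 65569413) was at 52.2 and 53.5 CPM in control and at 76.2 and 94.2 CPM in knockdown cells. The groups were far apart relative to the controls, and the log2 fold change came to 0.69 (standard error 0.14). Leaving out control replicate 1 or control replicate 2 ended the call at nearly the same size, 0.67 and 0.70. The span of FNTB, on the other strand, overlaps that of MAX, and FNTB had 224 to 319 counts per library. Part of the reads may be shared if exons overlap and strand was not used in counting, which was not tested.

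MXD1 had the largest log2 fold change of the 9 tested network genes. MXD1, also known as MAD1 and induced when cells differentiate (ENSG00000059728, chromosome 2, 70124820 to 70170077), had 287 and 324 counts in control and 815 and 622 in knockdown libraries. This came to 16.9 and 16.5 CPM against 39.2 and 43.3 CPM. The 2 control libraries were nearly equal and both knockdown libraries were over them by a wide margin, a log2 fold change of 1.30 (standard error 0.13) or 2.47 times the control level. MXD1 was the only network gene that stayed called whichever of the 4 libraries was left out, with log2 fold changes from 1.23 to 1.38. SNRNP27 overlaps MXD1 on the same strand and had 251 to 347 counts per library.

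The other MXD genes went separate ways. MXD4, a paralog found in resting and differentiated cells (ENSG00000123933, chromosome 4, 2249159 to 2263836), was the most abundant of them at 102 and 108 CPM in control and 152 and 215 CPM in knockdown libraries. Its groups did not overlap and its log2 fold change was 0.81 (standard error 0.17), 0.54 without USP47 shRNA replicate 2 and not called without control replicate 1 (0.77). MXD3, the member known from proliferating S-phase cells (ENSG00000213347, chromosome 5, 176728462 to 176739758), was at 15.8 and 18.6 CPM in control against 13.8 and 14.4 CPM. Both knockdown libraries lay below both controls, but the log2 fold change of -0.29 (standard error 0.15) was not called. The span of RAB24 overlaps that of MXD3 on the same strand, with 50 to 69 counts. The span of PRELID1 overlaps it on the other strand with 887 to 1212 counts, more than MXD3 itself. Overlap of exons was not examined, so whether the value for MXD3 is affected was not tested. MXI1 (ENSG00000119950, chromosome 10, 111967363 to 112047123), the MXD2 of the family, was at 22.8 and 20.5 CPM in control and 21.7 and 23.3 CPM in knockdown cells. Its groups overlapped at a log2 fold change of 0.055 (standard error 0.14), which turned to -0.016 when libraries were scaled by size only.

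MNT and MGA, the large MAX-binding repressors outside the MXD family, differed from each other too. MNT, present in most cells whether dividing or not (ENSG00000070444, chromosome 17, 2287367 to 2304398), was at 32.5 and 34.97 CPM in control and 59.4 and 57.4 CPM with USP47 shRNA. In CPM its knockdown libraries were the closest pair of the 5 genes called, but not in the deposited TPM (9.88 and 7.14). The log2 fold change was 0.79 (standard error 0.13), not called without control replicate 1 (0.74). MGA (ENSG00000174197, chromosome 15, 41913332 to 42065279) was at 223 and 206 CPM in control and 254 and 220 CPM in knockdown cells. The groups overlapped and the log2 fold change was 0.14 (standard error 0.14).

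**Figure D2:**
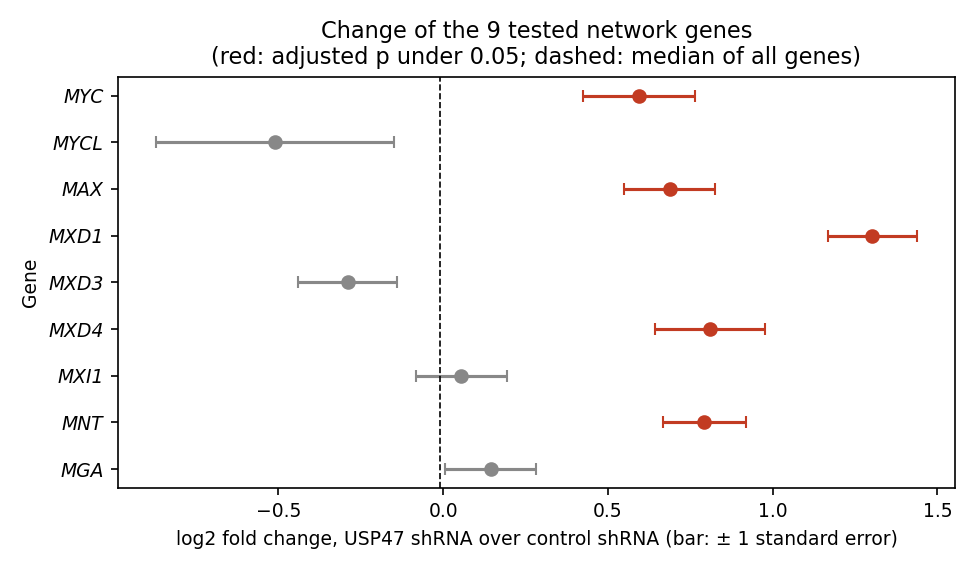
The log2 fold change, USP47 shRNA over control shRNA, of the 9 tested network genes, with bars of 1 standard error. Red genes passed an adjusted p of 0.05 in edgeR's fit of all genes, and the dashed line at -0.0083 is the median of all tested genes. MXD1 is farthest right at 1.30, and MYCL has the widest bar.

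Both knockdown libraries gave the 5 called genes the same order of CPM. Replicate 2, the library with less USP47, had the higher CPM of MYC, MAX, MXD1 and MXD4, and replicate 1 that of MNT. In the deposited TPM, replicate 1 was higher for MAX (24.9 against 23.1) and MXD1 (8.99 against 7.44), so for these genes the order of the libraries depends on the scaling. The gap between the knockdown libraries was widest for MYC and MXD4 in CPM. With 2 libraries, no relation of these levels to the depth of the knockdown was tested. In bulk libraries, a change in every cell and a change in a share of the cells cannot be told apart.

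Sequence upstream of the RefSeq start is shown for the 3 called repressors, since MYC with MAX and the MXD proteins read the same short motif. RefSeq windows of 250 bases before the gene start (GRCh38.p14, placed on GRCh37 by exact match) were found for 9 of the 10 genes, all but MYC, and were searched for the E-box CACGTG, which reads the same on both strands. Of these 9 windows, 2 held it, those of MXD4 and MNT, 238 and 193 bases before the RefSeq start. Among all 27305 windows of that length 6.49% held an E-box. That start is the printed gene end for MXD4 and lies 44 bases inside the GENCODE span for MNT and 17421 bases inside it for MXD1, so the MXD1 stretch is upstream of an internal start. The lines give, 5′ to 3′ on the strand of each gene and in capitals where the E-box lies, the stretch of the window that no annotated exon covers. They lie at chr4:2263837-2264086 (minus strand) for MXD4, chr17:2304399-2304604 (minus strand) for MNT and chr2:70141991-70142172 (plus strand) for MXD1, which holds no such letters. The E-box begins at base 13 of the MXD4 line and base 58 of the MNT line.
MXD4: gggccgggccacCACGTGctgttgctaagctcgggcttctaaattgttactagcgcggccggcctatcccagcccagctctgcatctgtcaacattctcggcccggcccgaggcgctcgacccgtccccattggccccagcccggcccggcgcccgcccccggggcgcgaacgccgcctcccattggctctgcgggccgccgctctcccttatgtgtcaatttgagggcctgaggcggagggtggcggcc
MNT: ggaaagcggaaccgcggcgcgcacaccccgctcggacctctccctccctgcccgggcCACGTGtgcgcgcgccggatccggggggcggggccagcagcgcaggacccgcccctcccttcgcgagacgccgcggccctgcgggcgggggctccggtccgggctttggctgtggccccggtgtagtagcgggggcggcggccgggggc
MXD1: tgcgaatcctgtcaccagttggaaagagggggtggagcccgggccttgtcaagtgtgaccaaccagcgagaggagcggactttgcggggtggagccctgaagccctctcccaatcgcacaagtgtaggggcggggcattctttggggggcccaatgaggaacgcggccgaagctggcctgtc

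GC made up 80.6% of the MNT stretch, 70.4% of the MXD4 stretch and 63.2% of the MXD1 stretch. A match describes the letters and does not show that a network protein is bound there.

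Levels were compared between network genes per length, in the TPM values (transcript abundance scaled for gene length and library) that the authors deposited. MYC led at 161 ± 2.58 TPM (SD, n = 2) in control cells, ranks 154 and 142 among 19488 protein-coding genes, and 102 and 93 in the knockdown libraries. MXD4 (20.3 ± 1.00 TPM) and MGA (20.3 ± 2.95 TPM) came next and overlapped between libraries. MAX followed at 16.3 ± 1.20 TPM, with both its values below both of MGA. MXI1 (6.46 ± 1.04 TPM), MNT (5.28 ± 0.200), MXD3 (4.54 ± 0.107) and MXD1 (3.63 ± 0.388) formed the next step, each neighbour apart from the last in both control libraries. This order rests on the lengths behind the TPM. With GENCODE 44 exon lengths, CPM per kilobase in control was 3.85 and 3.48 for MXI1, 3.73 and 4.02 for MNT, and 3.33 and 3.91 for MXD3, which overlap. MXD1 stayed below them at 2.66 and 2.60, and MXD4 (14.8 and 15.7) no longer overlapped MGA (11.1 and 10.2). MYCL (0.709 ± 0.0529) and MYCN (0.307 ± 0.0791) were last.

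In the knockdown libraries the order within the MXD family was different. MXD1 reached 8.99 and 7.44 TPM, above MXI1 at 6.84 and 5.48 TPM and overlapping with MNT at 9.88 and 7.14 TPM, whereas in control cells it had been the lowest of the 4 MXD genes. MXD3, at 3.88 and 3.02 TPM, was then the lowest. MXD4 kept the lead of the family with 31.2 and 33.1 TPM. Of the summed TPM of the 10 genes, MYC took 66.4% and 68.6% in control and 66.2% and 69.9% in knockdown libraries. MXD1 took 1.59% and 1.44% against 2.72% and 2.33%. The share of MYC overlapped between groups and that of MXD1 did not.

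The balance of MYC activators to MXD repressors was given within each library, so that the scaling between libraries does not enter. The summed TPM of MYC, MYCN and MYCL was 164 and 160 in control and 219 and 224 in knockdown libraries. The summed TPM of MXD1, MXD3, MXD4 and MXI1 was 36.6 and 33.3 against 50.9 and 49.1. Both sums were higher in the knockdown without overlap, though unlike their ratio the sums depend on the scaling between libraries. Their ratio was 4.49 and 4.82 in control libraries and 4.30 and 4.57 with USP47 shRNA, or 4.66 ± 0.233 against 4.43 ± 0.187 (SD, n = 2 per group). The ratios overlapped in the deposited TPM. No test was run, since the genes were chosen on it. With MNT and MGA counted among the repressors, the mean was 2.69 in control and 2.81 in knockdown cells, the opposite order and again overlapping. The lengths behind the deposited TPM differ from GENCODE 44, in which MYC is longer relative to the MXD genes. With the GENCODE 44 lengths the ratio was 2.26 and 2.40 in control and 2.13 and 2.25 in knockdown libraries, and in CPM without lengths it was 2.15 and 2.30 against 2.00 and 2.09. In both of these the groups did not overlap and the knockdown was lower, so the size of the ratio and the overlap depend on the gene lengths used. With the GENCODE 44 lengths the nearest libraries were almost tied, at 2.257 in control and 2.250 in knockdown.

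Ratios of MYC to single genes differed more between groups for MXD1 than for the others. The ratio of MYC to MXD1 was 41.8 and 47.6 in control and 24.3 and 30.0 in knockdown libraries. MYC to MXD4 went from 7.77 and 8.14 to 7.01 and 6.75. Neither pair of groups overlapped. With GENCODE 44 lengths MYC to MXD1 was 20.6 and 23.4 against 12.0 and 14.8. MYC to MXD4 was then 3.71 and 3.89 against 3.34 and 3.22. For a ratio of single genes, other lengths scale every library alike, so they change its size but cannot change the overlap. In the deposited TPM, MYC to MAX was 9.49 and 10.3 against 8.77 and 9.68, and MYC to MNT was 30.1 and 31.0 against 22.1 and 31.3, both overlapping.

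**Figure D3:**
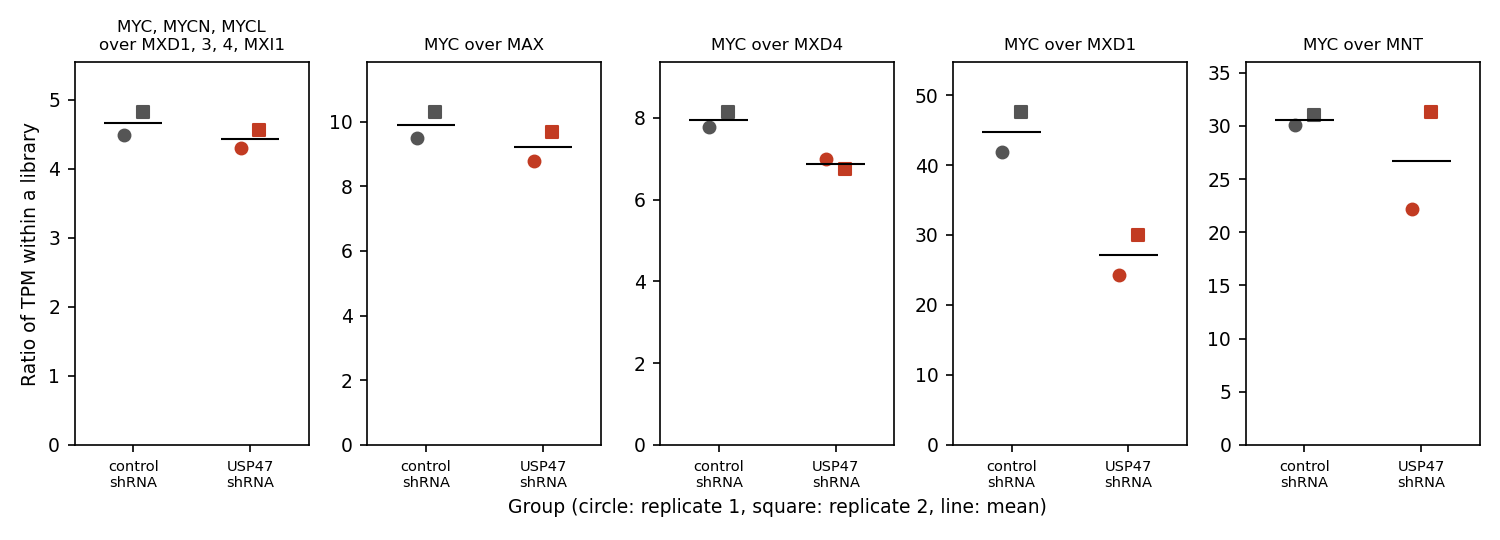
Ratio of TPM within each library, from 0, for the summed activators over the 4 MXD repressors and for MYC over 4 single partners or competitors. Gray is control shRNA, red is USP47 shRNA, circles are replicate 1, squares are replicate 2 and lines are means. The summed ratio overlaps between groups (4.49 and 4.82 against 4.30 and 4.57), while MYC over MXD1 does not (41.8 and 47.6 against 24.3 and 30.0).

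Genes with the pattern most like MXD1 and MYC were sought by the Euclidean distance of centred log2 CPM over the 4 libraries, among 15791 other genes. Nearest to MXD1 were ZIC2 (distance 0.0243), a zinc finger developmental factor, PIK3R3 (0.0753), a regulatory subunit of PI3-kinase, and TULP3 (0.0971), a ciliary trafficking protein. Nearest to MYC were RAB3IL1 (0.0205), UBA1 (0.0220), the ubiquitin-activating enzyme, and UBXN1 (0.0278). ZIC2 was at 17.7 and 17.3 CPM in control and 41.8 and 45.4 CPM in knockdown libraries, close to the levels of MXD1. The likeness rests on 4 libraries and is given as a description.

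Genes under MYC were described with a list of genes known to be activated by it, of which 73 were found in the files and tested. Of these, 10 were called, 6 higher and 4 lower, or 13.7% beside 16.1% of all genes, and 63 were not called. The median log2 fold change was 0.080. This list and the lists below were written with earlier results of these data known, so their shares called are a description. The genes that rose with the smallest p were SRM, RRP9 and WDR74, for spermidine synthesis, ribosomal RNA processing and ribosome assembly. SRM, spermidine synthase, was at 70.3 and 84.3 CPM in control and 114 and 133 CPM in knockdown cells (log2 fold change 0.67, standard error 0.14, adjusted p = 0.0128, edgeR). RRP9 had a log2 fold change of 0.69 and WDR74 of 0.59. ODC1, the rate-limiting enzyme of polyamine synthesis and a textbook MYC target, fell from 117 and 128 CPM to 69.9 and 74.4 CPM (log2 fold change -0.76, standard error 0.13, adjusted p = 0.00444, edgeR). NCL, the nucleolar protein nucleolin, fell by 0.52 and TFRC, the transferrin receptor, fell by 0.44 on the log2 scale. The 2 polyamine enzymes SRM and ODC1 thus went in opposite directions. The number called moved in every fit that left out 1 library, for this list and over all genes alike. In those fits the median log2 fold change of the list was 0.070 to 0.088.

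An E-box in the 250 base window was held by 14 of 59 activated targets with a window, or 23.7%, beside 6.49% of all windows. Of those 14 genes 2 were called higher and 0 lower. Their median log2 fold change was -0.068, against 0.090 for the 45 activated targets without the motif. Over all 1025 tested genes with an E-box in the window, 101 (9.85%) were called higher and 90 (8.78%) lower, and the median log2 fold change was 0.062. Among 11056 tested genes without one, 865 (7.82%) were called higher and 1295 (11.7%) lower, with a median of -0.00081. These shares describe the letters and calls and were not tested against each other.

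Genes reported as repressed by MYC gave both directions. Of 20 listed genes 17 were tested, with 3 called higher and 5 lower, or 47.1% beside 16.1% of all genes. Their median log2 fold change was 0.064. Earlier results were known when the list was written, so nothing is read from this share. CDKN1B, the CDK inhibitor p27, rose from 39.5 and 39.6 CPM to 79.2 and 93.6 CPM (log2 fold change 1.13, standard error 0.13, adjusted p = 0.00094, edgeR). NDRG1, a stress-responsive gene, rose by 0.75 and CCND1, the G1 cyclin D1, by 0.50 on the log2 scale. PDGFRB, a receptor for platelet-derived growth factor, was at 8.49 and 9.02 CPM in control and 1.83 and 2.44 CPM in knockdown cells (log2 fold change -2.06, adjusted p = 0.000535, edgeR). NDRG2, a paralog of NDRG1, fell by 1.23 on the log2 scale. THBS1, the matrix protein thrombospondin, fell by 0.64. The median turned to -0.085 without USP47 shRNA replicate 2, was 0.50 without USP47 shRNA replicate 1 and was -0.0013 when libraries were scaled by size only. The number called was smaller without either control library in turn, as it was over all genes. NDRG1 was not called by DESeq2 (adjusted p = 0.0886) or without either control library. CDKN1B, PDGFRB and NDRG2 stayed called whichever library was left out.

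Among 24 genes whose products control the stability of MYC protein, 8 rose, 2 fell and 14 were not called. That is 41.7% called beside 16.1% of all genes, with a median log2 fold change of 0.15. This list too was written with earlier results known, so nothing is read from its share. FBXO32, the F-box protein atrogin-1, rose from 38.6 and 35.3 CPM to 84.4 and 116 CPM (log2 fold change 1.44, standard error 0.16, adjusted p = 0.000781, edgeR). PIM1, a kinase reported to stabilize MYC, rose from 14.1 and 16.9 CPM to 30.1 and 49.6 CPM (log2 fold change 1.36, adjusted p = 0.00371, edgeR). PPP2R5A, a phosphatase 2A subunit that acts toward MYC degradation, rose by 0.64. SKP2, an F-box protein that ubiquitinates MYC and p27, fell from 94.3 and 97.8 CPM to 64.7 and 58.0 CPM (log2 fold change -0.65, adjusted p = 0.0092, edgeR). AURKA, the mitotic kinase known to shield MYC proteins, had a log2 fold change of -0.60 (adjusted p = 0.014, edgeR). Genes on both sides of MYC stability were thus among those called. Fewer genes were called when libraries were scaled by size only, 4 higher and 2 lower, and with no filter on low counts, 3 higher and 2 lower. The number was also smaller without control replicate 1 or without control replicate 2, as it was over all genes. MYC protein was not measured in these libraries.

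The complexes through which the network acts held called genes at about the share of all genes. Over 43 tested genes of the MLX arm, the MYC coactivators, the SIN3 corepressor and the PRC1.6 complex, 4 were called higher and 2 lower, or 14.0% beside 16.1% of all genes, with a median log2 fold change of 0.15. Of 14 coactivator genes 2 were called, both higher. Of these KAT2A, the acetyltransferase GCN5, rose from 66.7 and 68.1 CPM to 95.2 and 98.2 CPM (log2 fold change 0.52, adjusted p = 0.0185, edgeR). CREBBP, another acetyltransferase, rose by 0.49. In the SIN3 complex that MXD and MNT recruit, the deacetylase HDAC1 rose from 87.6 and 78.4 CPM to 115 and 134 CPM (log2 fold change 0.59, adjusted p = 0.018, edgeR). Of the 14 SIN3 genes 2 rose and 1 fell. BRMS1 rose by 0.45, with an adjusted p of 0.0574 when scaled by size only and 0.0663 with no filter in edgeR's test. SAP30L had a log2 fold change of -0.64, with an adjusted p of 0.0532 by DESeq2. Of 11 genes of the MGA complex PRC1.6, 0 were called by edgeR or by DESeq2, and 5 had an unadjusted p under 0.05 in edgeR's test. In the MLX arm 1 of 4 tested genes was called. MLXIPL, the glucose-responsive factor ChREBP that pairs with MLX in place of MAX, was low at 4.24 and 3.06 CPM in control and 0.721 and 1.39 CPM in knockdown cells (log2 fold change -1.84, standard error 0.33, adjusted p = 0.0061, edgeR). The number called over these 43 genes changed in every fit that left out 1 library, as did the number over all genes.

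Among 6 tested genes of the MYC locus or known to act on MYC transcription, 1 was called, or 16.7% beside 16.1% of all genes. FUBP1, a protein that binds the far upstream element of MYC, fell from 196 and 186 CPM to 138 and 118 CPM (log2 fold change -0.58, standard error 0.14, adjusted p = 0.019, edgeR). The call was lost without control replicate 1 (-0.53) and without control replicate 2 (-0.62). No gene of that list was called higher by edgeR or DESeq2, a count of 0, and 1 had an unadjusted p under 0.05.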

How the data were processed

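RNA-Seq libraries of HGC-27 cells (2 with control shRNA, 2 with USP47 shRNA) were grouped by the submitters' labels. The authors trimmed bases below a quality score of 20, mapped reads to hg19 with STAR 2.7.5c and used SAMtools 1.9 to drop duplicate and poor reads, and the submitters' processing notes also name featureCounts. The authors deposited raw counts per gene, TPM and FPKM values. Removal of duplicates without molecular identifiers can compress the change of abundant genes. The deposited counts were tested and the FPKM values were not used. The deposited TPM values served for levels and ratios within a library, since 1 gene, RN7SL2, took 20.8% to 24.1% of them. Where TPM values or their sums are set side by side between libraries, that share enters, so they are a description only.

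Counts were compared by edgeR 4.0.16 (TMM, filterByExpr, robust quasi-likelihood fit, both directions) over 21932 genes. The standard error of a log2 fold change is its absolute value over the root of the F statistic. SD values measure the spread between 2 libraries per group, which may be technical. The p-values test the group difference, with the variability of each gene drawn toward a trend over all tested genes. They rest on the same 2 libraries per group. The steps were run on simulated counts with the same dispersion for every gene, which does not test the calls made on these libraries. Whether counting used strand is not given in the sources used here. Symbols matched 55665 identifiers, and positions are from GENCODE 44 on GRCh37. The members and gene lists, written from general knowledge, were chosen with earlier results of these data known. Named genes are the members, PVT1, USP47, the 3 genes nearest to MXD1 and to MYC, and per list the 3 called higher and the 3 called lower with the smallest p and no overlap between groups. Alternatives covered DESeq2 1.42.0, the scaling, the filter, the replicate block, each library left out, and the definition of the ratio.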

Additional observations from a re-analysis of the deposited data

How the results depend on the processing

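The 5 network genes called higher were 5 with every scaling, filter, test and block tried, while 1 to 6 were called in the fits that left out 1 library, where a lone library is assumed to vary like the other group. The lowest number, 1 (MXD1), came without control replicate 1, and without control replicate 2 it was 3. The 6 included MYCN or MYCL, called lower without USP47 shRNA replicate 1 or 2. Over all genes, 3527 were called (40.5% higher), 2288 by the DESeq2 Wald test (48.7% higher), 2800 with library size alone (31.5% higher) and 1230 to 7270 without 1 library. Turnover genes called numbered 6 with library size alone, 5 with no filter and 2 to 14 without 1 library. Activated targets ranged from 1 to 28, repressed targets from 4 to 12 and cofactors from 1 to 22 in those fits. The cause of these shifts was not tested. Library size alone split the activated targets called 5 higher and 5 lower, the cofactors 3 and 3 and the turnover genes 4 and 2. With no filter the activated targets were 5 and 5 and the turnover genes 3 and 2, and by DESeq2 the cofactors were 6 and 1.

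With a replicate block, 7422 genes, 24 activated targets and 23 cofactors were called, and the repressed targets split 7 higher and 5 lower. Deviations of replicate 1 correlated at 0.274 between groups over genes. There are only 2 pairs, and the labels tie the libraries of a pair by a number alone, so whether they were processed together is not known.

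The ratio of activators to MXD repressors (4.66 in control, 4.43 in knockdown) was 2.69 and 2.81 with MNT and MGA among the repressors. It was 2.23 and 2.04 in CPM, and 2.33 and 2.19 with GENCODE 44 lengths, an alternative chosen after seeing the data. The groups did not overlap in the CPM and GENCODE 44 settings, but in the latter the nearest libraries were almost tied (2.257 in control, 2.250 in knockdown). Signs turned for MYCL (0.095 without USP47 shRNA replicate 1, range to -1.24), MXI1 (-0.016 with library size alone, -0.021 to 0.13 without 1 library) and PVT1 (-0.033 with library size alone, -0.0041 to 0.076 without 1 library), none of them called in the full comparison. Of 24 named genes called in the lists, 6 stayed called without each library in turn, as did USP47.

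Few counts limit the precision for MYCL and MYCN.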
